A study of Mus musculus with 5 samples.

Results

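Slc12a1 and Slc34a1 are a pair of sodium-coupled transporter genes of the kidney tubule, described here by the RNA polymerase II found on them in 5 mouse tissues. They were taken by position, as windows given in mm9: 140 kb of chromosome 2 from 124950001 for Slc12a1 and 45 kb of chromosome 13 from 55485001 for Slc34a1. The windows hold as many bins of 1 kb, together 185 of the 2641884 bins into which the mapped chromosomes were divided. Both were chosen because an earlier look at these data showed kidney high there, so the lead of kidney over the other tissues is a description and not a test. Chromatin immunoprecipitation followed by sequencing was done on kidney and on 4 other tissues of adult FVB mice (liver, spleen, lung and brain), each crosslinked with 1% formaldehyde. The labels name no genetic change or treatment, and every tissue had 1 library, with no replicate and no input library used here. The sex, the exact age and the number of mice behind a library are not in the labels. Libraries held 10292262 reads (brain) to 14964934 reads (liver), and kidney held 13786536.

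Slc12a1 encodes the sodium-potassium-chloride cotransporter NKCC2 of the apical membrane of the thick ascending limb, the target of loop diuretics. Slc34a1 encodes the sodium-phosphate cotransporter NaPi-IIa of the proximal tubule brush border, which recovers filtered phosphate and is withdrawn from the membrane under parathyroid hormone. The genes thus belong to different segments of the same nephron, and a whole-kidney library mixes both segments with all other renal cells. RNA polymerase II that is crosslinked to DNA is recovered along the whole transcribed unit and not only at its start, so a heavily transcribed gene appears as a broad block of reads.

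The sequence around each annotated start is shown because polymerase is loaded there, and because the starts differ in the short elements they carry; where they fall on the mm9 reads was not determined. The letters are from RefSeq on GRCm38.p6 (C57BL/6J), plus strand, 250 bases before the start and the first 30 after it, at chr2:125152350-125152629 for Slc12a1 and chr13:55399398-55399677 for Slc34a1 in that build. Capitals mark 3 motifs, searched on both strands. They are the TATA box as TATAAA, the CCAAT box as its 5 letters, and the motif GTTAAT. The latter is one arm of the palindrome bound by HNF1 factors, which act in kidney tubule and liver. These motifs were picked with the sequences in view.
Slc12a1: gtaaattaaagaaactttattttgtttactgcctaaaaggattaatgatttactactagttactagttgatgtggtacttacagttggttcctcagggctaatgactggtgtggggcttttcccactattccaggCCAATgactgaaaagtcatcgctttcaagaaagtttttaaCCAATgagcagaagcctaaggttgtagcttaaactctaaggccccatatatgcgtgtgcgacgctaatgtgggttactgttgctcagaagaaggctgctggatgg
Slc34a1: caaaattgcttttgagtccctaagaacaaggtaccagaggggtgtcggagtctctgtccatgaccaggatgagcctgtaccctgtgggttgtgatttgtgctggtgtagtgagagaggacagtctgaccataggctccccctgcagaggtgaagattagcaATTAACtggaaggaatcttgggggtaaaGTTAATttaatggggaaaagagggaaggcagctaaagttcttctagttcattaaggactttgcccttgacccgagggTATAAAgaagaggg
Slc12a1 carried CCAAT at positions -115 and -75 from its annotated start, and neither of the other marked motifs. CCAAT lay in 36.1% of the 32851 RefSeq promoters cut to the same length. Slc34a1 carried GTTAAT at -61, its reverse complement at -89, and TATAAA at 17 past the annotated start. GTTAAT on either strand was found in 6.85% of promoters and TATAAA in 13.1%. The E-box CACGTG, present in 6.79% of promoters, was in neither sequence. Both sequences had fewer CpG than the median promoter, with 4 in Slc12a1 and 2 in Slc34a1 against a median of 6 over all promoters (quartiles 2 and 19). A match is a match of letters only, and no factor was measured.

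Polymerase covered Slc12a1 as a long, fairly even block in kidney. The block was outlined by bins that held at least 20 kidney reads and at least 4 times the scaled count of each other tissue, joined over gaps of at most 5 bins. It ran for 86 kb, chr2:124978001-125064000. Of the 88 bins in the window with at least 20 kidney reads, 62 met the 4-fold rule, all inside the block. Over all such bins of the genome 2.12% met it, and since the window was chosen on the same contrast nothing is read from the difference. The bins nearest the threshold were at 4.01-fold inside it and 3.99-fold outside it. At least 8-fold was reached by 9 of the 62, and by 0.166% of such bins of the genome. Spleen was the next highest tissue in 30 of the 62 bins, lung in 26, liver in 5 and brain in 1, and lung was next in 32.3% of all kidney-high bins of the genome.

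The 86 kb block held 5284 reads in kidney, 873 in lung, 521 in spleen, 427 in liver and 308 in brain. Scaled by factors that make regions common to all tissues equal, this was 56.3 reads per kb in kidney (95% exact Poisson interval 54.8 to 57.8). Spleen followed at 9.03 (8.27 to 9.84) and lung at 8.96 (8.37 to 9.57), which were not separated by counting error. Liver had 4.25 scaled reads per kb (3.86 to 4.67) and brain 3.47 (3.09 to 3.88). Kidney was therefore 6.23-fold over spleen (95% exact conditional binomial interval 5.69 to 6.83), 6.28-fold over lung, 13.2-fold over liver and 16.2-fold over brain. With scaling by total reads kidney still led, at 4.76-fold over lung and 9.77-fold over spleen, so the place of lung and spleen depended on the scaling. All intervals cover counting error only, and without molecular identifiers the reads cannot be taken as independent molecules. In whole tissue, fewer cells with an active gene and less polymerase per cell cannot be told apart.

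**Figure D1:**
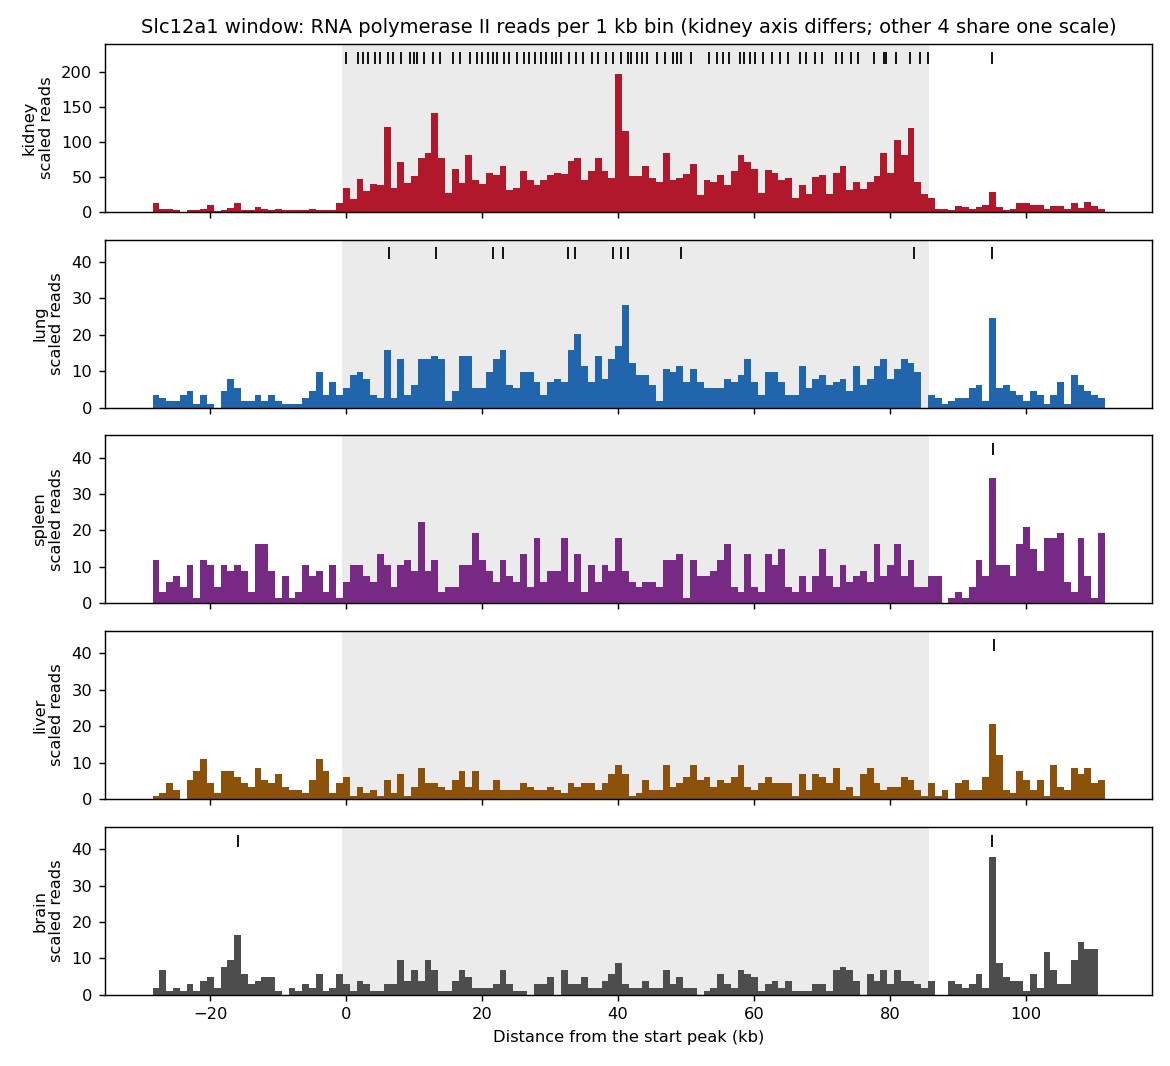
Scaled reads per 1 kb bin (bars) across the Slc12a1 window in each tissue, against distance from the kidney start peak in kb; ticks above the bars are the peak positions the authors listed, and grey marks the 86 kb kidney-high block. Kidney has its own vertical scale, reaching 196 scaled reads, while the other 4 tissues share one; brain, liver and spleen have their highest bin 95.1 kb past the start peak, outside the block, and lung has its highest inside it.

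Inside the block every one of the 86 bins held more scaled reads in kidney than in any other tissue. For 62 of them the 4-fold rule that drew the block required this. Kidney counts per bin ran from 20 to 214 with a median of 55.5. In lung they ran from 0 to 32 (median 9), in spleen from 1 to 15 (median 6), in liver from 1 to 11 (median 5) and in brain from 0 to 10 (median 3). Kidney bins overlapped those of lung in raw counts, and no other tissue reached the lowest kidney bin. Cut into 10 equal lengths, the block held between 7.55% and 14.2% of its kidney reads in each, so no end dominated.

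Each library was also set against its own flank. The block was outlined by scaled kidney excess, so a high kidney ratio of block to flank follows from the outline on both genes and supports nothing. Kidney read density in the block was 13.7 times (11.4 to 16.4) that of the 28 kb before it. Lung was also denser in the block, 2.84 times (2.31 to 3.53). Spleen, at 1.20 (0.997 to 1.46), liver, at 0.891 (0.740 to 1.08), and brain, at 0.912 (0.731 to 1.14), had intervals that included 1. Against the median bin of its own genome, block density was 15.4 times as high in kidney and 3.38 times in lung. For brain this ratio was 1.79, for spleen 1.51 and for liver 1.24.

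The kidney library had the most reads on Slc12a1 well inside the gene's block, not at its start. The start peak, the kidney-listed position chr2:124978436, had 28 kidney reads within 250 bp and 3 in brain, 5 in liver, 4 in lung and 1 in spleen. Its density, 55.9 reads per kb, was 0.902 times (0.599 to 1.31) that of the body from 1 kb onward, an interval that included 1. With 500 bp to both sides the ratio was 0.581 (0.406 to 0.805). The bin with the fewest kidney reads, 20, came directly after the start bin, at chr2:124979001-124980000.

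The highest bin, chr2:125018001-125019000, lay 40.1 kb past the start peak and held 214 kidney reads, 19 in lung, 12 in spleen, 11 in liver and 9 in brain. The listed kidney position in it, 40.4 kb past the start peak, had 171 reads within 250 bp. Reads there were split by strand, and 80% were on the plus strand in the 500 bp before that position (95% exact binomial interval 71.7% to 86.7%, 96 of 120). In the 500 bp after it 16.9% were (11.03% to 24.3%, 23 of 136). Over the whole block the plus share was 50.8%. Of the reads in this bin, 26.2% repeated the position and strand of another read, against 7.21% over the block. The next bins by kidney reads held 154 and 132, at 13.1 and 6.06 kb past the start peak.

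A bin shared by all tissues lay past the end of the block. The bin chr2:125073001-125074000 held a listed peak in all 5 tissues, and it was the highest bin outside the block in each of them. It held 39 reads in brain, 31 in kidney, 28 in lung, 24 in liver and 23 in spleen. Scaled, brain had 37.8 reads, spleen 34.3, kidney 28.4, lung 24.7 and liver 20.5, so kidney was in the middle. The scaling factors make regions common to all tissues equal, so this place of kidney is no separate control. The protein-coding genes next in order after Slc12a1 in the GRCm38 gene table are Dut, which encodes the enzyme dUTPase, and Fbn1, which encodes the matrix protein fibrillin. Ctxn2 and Myef2 come directly before Slc12a1. The bin was not assigned to any of them, since the table is of another build. Before the block, kidney had 4.12 scaled reads per kb (3.44 to 4.91) and liver 4.77 (4.05 to 5.58), with spleen at 7.51, brain at 3.81 and lung at 3.15, so kidney did not lead there.

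Slc34a1 was shorter and far denser. Its kidney-high block covered 18 kb, chr13:55501001-55519000, and all of its 18 bins met the 4-fold rule. The window held 22 bins with at least 20 kidney reads, of which these 18 met the rule, against 2.12% over the genome, again on the contrast that chose the window. The 18 kb held 4186 reads in kidney, 517 in lung, 147 in spleen, 110 in liver and 86 in brain. In scaled reads per kb this was 213 in kidney (207 to 220), 25.3 in lung (23.2 to 27.6), 12.2 in spleen (10.3 to 14.3), 5.23 in liver (4.30 to 6.31) and 4.63 in brain (3.70 to 5.72). The order was kidney, lung, spleen, then liver and brain, and the latter pair was not separated by counting error. At least 8-fold over every other tissue was reached by 11 of the 18 bins, and by 0.166% of genome bins with at least 20 kidney reads. Lung was the next highest tissue in 14 of the 18 bins, spleen in 3 and liver in 1. Over all kidney-high bins of the genome lung was next in 32.3%.

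Kidney exceeded lung on Slc34a1 by 8.41-fold (7.67 to 9.23). It exceeded spleen by 17.5-fold (14.8 to 20.8), liver by 40.7-fold (33.7 to 49.7) and brain by 46.0-fold (37.2 to 57.7). Without lung the fold over the next tissue was thus 17.5 instead of 8.41. With scaling by total reads the lead over lung was 6.37-fold and that over spleen 27.4-fold (23.3 to 32.6), so both depended on the scaling. Kidney bins ran from 101 to 915 reads with a median of 183.5. The highest bin in lung held 117, in spleen 15, in brain 13 and in liver 12, so only lung reached into the kidney range.

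**Figure D2:**
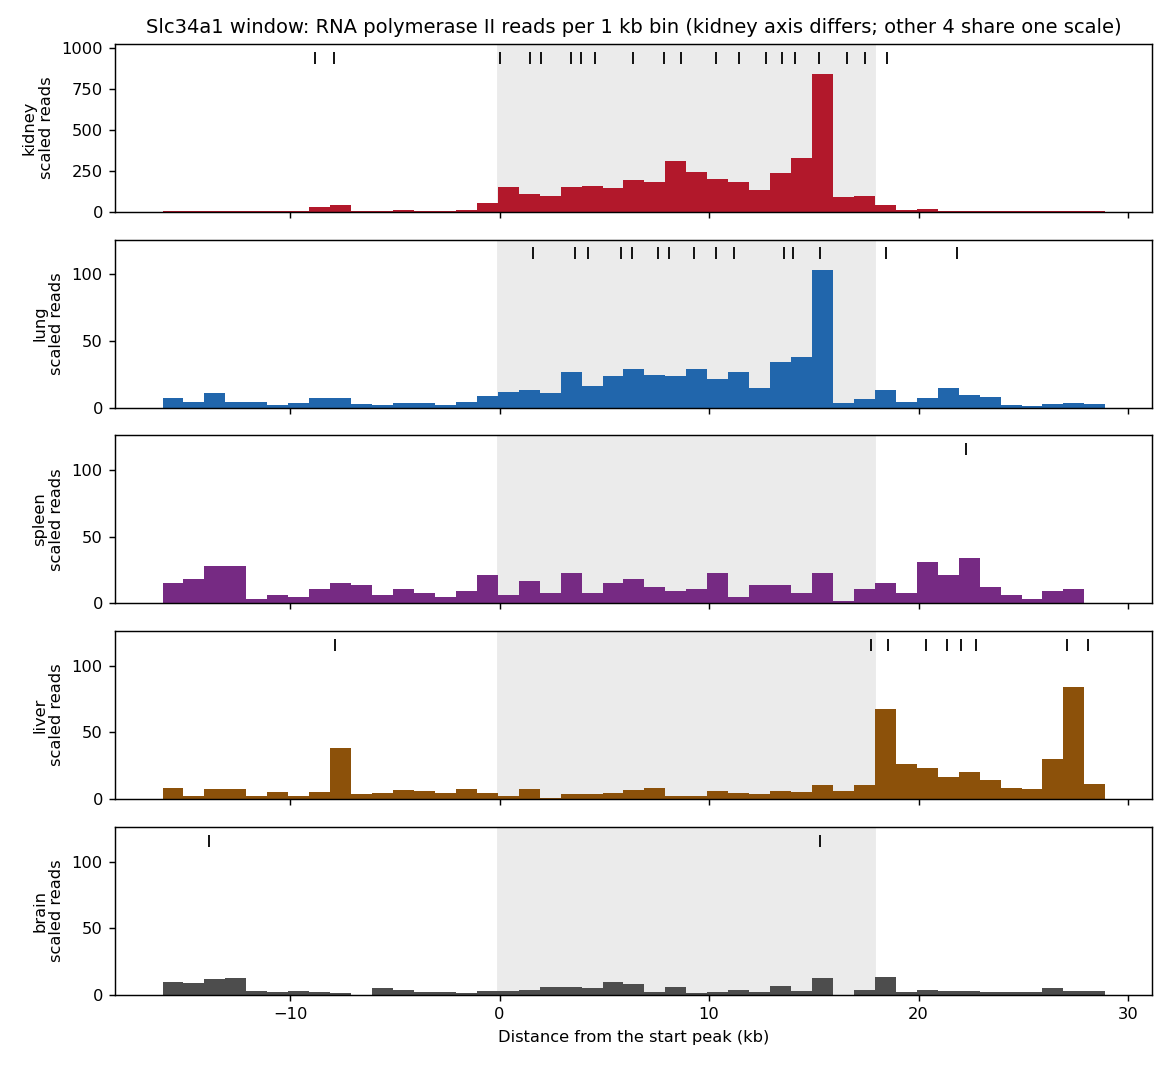
Scaled reads per 1 kb bin (bars) across the Slc34a1 window in each tissue, against distance from the kidney start peak in kb; ticks are the listed peak positions and grey marks the 18 kb kidney-high block. Kidney, on its own scale, and lung both have their highest bin 15.4 kb past the start peak, and liver is highest beyond the block.

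Where Slc12a1 was fairly level, Slc34a1 had its greatest share near its end in kidney. Of 10 equal lengths of the block, the first held 6.02% of its kidney reads, the one from 14.3 to 16.1 kb 28.1% and the last 4.23%. The bin chr13:55516001-55517000, 15.4 kb past the start peak, alone held 915 kidney reads, 21.9% of the block. The bin before it held 356 and the bin after it 101, the lowest of the block. Around the listed position in this bin, 63.1% of kidney reads were on the plus strand in the 500 bp before (58.5% to 67.6%, 284 of 450) and 30.1% in the 500 bp after (25.9% to 34.4%, 141 of 469). Repeated reads made up 25.4% of this bin and 12.0% of the block, which includes it. Such repeats become more frequent as reads per base rise, so the difference is not read as added duplication. The third highest bin, with 341 kidney reads, lay 8.41 kb past the start peak.

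At the start of Slc34a1 kidney reads were many and split by strand. The start peak, chr13:55501086, had 162 kidney reads within 250 bp, against 9 in lung, 5 in spleen, 2 in brain and 1 in liver. In the 500 bp before it 75% of kidney reads were on the plus strand (64.9% to 83.4%, 69 of 92), and in the 500 bp after it 22.5% (14.9% to 31.9%, 23 of 102). Read density within 250 bp was 1.36 times (1.16 to 1.59) that of the body. Within 500 bp it was 0.816 times (0.703 to 0.943), and without the bin of 915 reads the narrower ratio was 1.66 (1.41 to 1.94). The sign of this contrast therefore depended on the width taken as the start, and neither gene showed a start several times denser than its body.

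**Figure D3:**
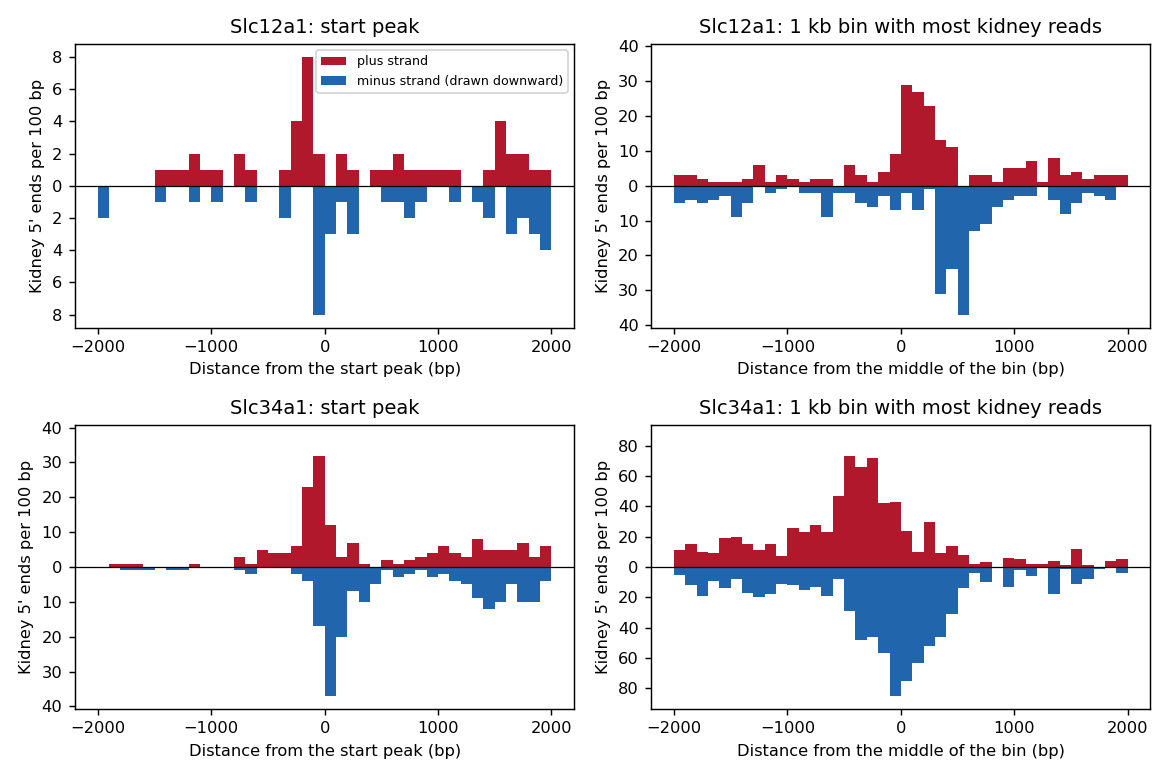
Kidney read starts per 100 bp on the plus strand (red, upward) and the minus strand (blue, downward) around the start peak (left) and the middle of the highest bin (right) of each gene, by distance in bp; vertical scales differ. Plus reads lie before and minus reads after the start peak of Slc34a1 and the site 40.4 kb into Slc12a1, while in the highest Slc34a1 bin the strands overlap over a broader range.

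Compared per length in the same kidney library, the body of Slc34a1 held 238 reads per kb and that of Slc12a1 61.9. The ratio was 3.84 (3.68 to 3.997), and 3.15 (3.01 to 3.29) without the highest Slc34a1 bin. In lung the same ratio was 2.92 (2.61 to 3.27). It was lower in spleen, at 1.38 (1.14 to 1.66), brain, at 1.34 (1.04 to 1.72), and liver, at 1.28 (1.02 to 1.58). With all bins the kidney interval lay above that of lung, and both lay above those of the other 3 tissues. The kidney interval without the highest bin overlapped that of lung with all bins, and the lung ratio without that bin was not computed. Background was left in these ratios. The Slc12a1 body was 15.5 times the genome's median bin in kidney, 3.40 times in lung and 1.24 to 1.80 times in the others. Background thus weighs more outside kidney, and the order of the ratios is not read as a tissue difference. With the median bin subtracted the kidney ratio was 4.03, and no such value is given for the other tissues.

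Among the 63 stretches of the genome made by the same rule with at least 5 kidney-high bins, Slc34a1 ranked 1 by kidney reads per kb, at 233 against a median of 50.6. Slc12a1 ranked 23 by density and 2 by length, at 86 kb against a median of 17 kb. The stretch whose levels in the 5 tissues were nearest to those of Slc12a1 lay at chr2:24271001-24296000, at a Euclidean distance of 0.337 on the log2 scale of reads per kb. Next came chr2:69260001-69423000 at 0.388 and chr9:32208001-32219000 at 0.502. Slc34a1 had no neighbour as close: the nearest were chr9:45212001-45225000 at 0.996, chr14:21656001-21664000 at 1.20 and chr15:89164001-89170000 at 1.47. All 3 held fewer kidney reads per kb, from 102 to 127 scaled against its 213.

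**Figure D4:**
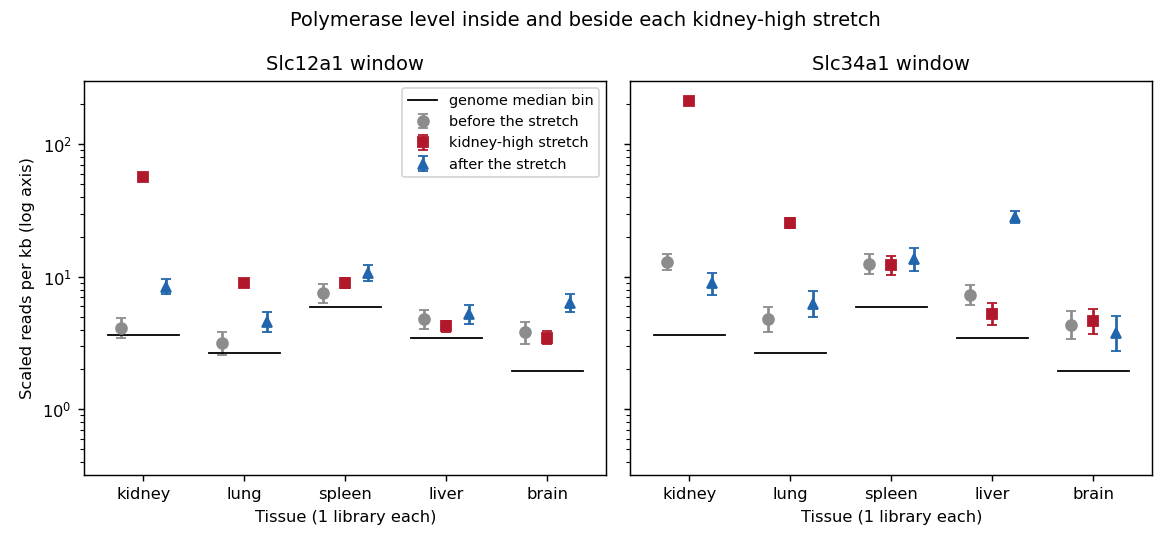
Scaled reads per kb (log axis) before, inside and after the kidney-high block of each gene, with 95% exact Poisson intervals of counting error; black lines give the genome's median bin in the same library. Inside both blocks kidney and lung stand above both of their flanks with intervals apart, which spleen, liver and brain do not, and liver is high after the Slc34a1 block.

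Lung was the other tissue with a raised signal on both genes, and it followed the kidney profile. On Slc34a1 lung density in the block was 5.28 times (4.202 to 6.71) that of the 16 kb before it and 9.57 times the lung genome's median bin. In kidney the former ratio was 16.5 (14.4 to 18.9). Of the 226 kidney reads in that flank, 60 lay in the bin directly before the block. A further 47 and 35 lay in raised bins before that one, and all of these lower the kidney ratio. Spleen, at 0.975 (0.766 to 1.24), and brain, at 1.06 (0.767 to 1.47), were level with their flank, and liver was lower, at 0.714 (0.5502 to 0.924). The liver flank included the raised bin chr13:55493001-55494000, with 45 of its 137 reads. The lower liver ratio is therefore not read as a loss of reads on Slc34a1. After subtraction of each library's median bin, lung carried 12.0% of the scaled kidney signal on Slc12a1 and 10.8% on Slc34a1. Spleen carried 5.83% and 2.97%, brain 2.91% and 1.28%, and liver 1.57% and 0.863%.

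Lung and kidney counts moved together from bin to bin. Across the 18 Slc34a1 bins Pearson's r of lung with kidney was 0.965 and Spearman's rho 0.867, and r was 0.805 without the highest bin. Across the 86 Slc12a1 bins r was 0.655 and rho 0.675. For the other 3 tissues r was 0.317 to 0.489 on Slc12a1. On Slc34a1 it was 0.367 to 0.587, and -0.168 to 0.0439 without the highest bin. Bins of one gene are not independent and share base composition and mappability, so these values describe the profiles only. The other 3 tissues also had fewer reads per bin than lung. Their medians were 3 to 6 against 9 on Slc12a1, and 4 to 7.5 against 27 on Slc34a1. Counting error lowers r more at lower counts, so the gap between lung and these tissues is not read as particular to lung.

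**Figure D5:**
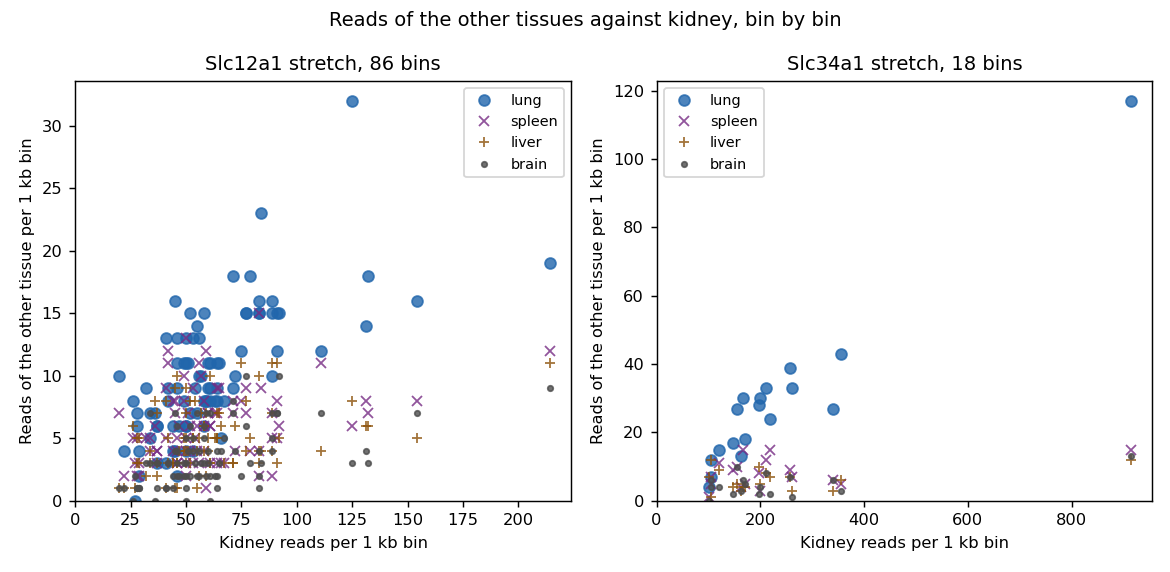
Raw reads per 1 kb bin of lung, spleen, liver and brain against kidney reads in the same bin, for the 86 bins of the Slc12a1 block and the 18 bins of the Slc34a1 block. Lung points climb with kidney on both genes, up to 117 lung and 915 kidney reads in a Slc34a1 bin, while the other tissues stay at or below 15 reads.

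The lung signal on these genes was near what lung showed on kidney-high stretches in general. Over the 63 stretches, the members among them, lung held a median of 11.2% of the kidney signal above the genome's median bin (quartiles 8.99% and 13.7%). Spleen held 6.66%, brain 3.12% and liver 3.12%. In 219 liver-high stretches found by the same rule lung held 3.01% of the liver signal, and in 20 spleen-high stretches it held 14.0% of the spleen signal. In 38 brain-high stretches lung held 4.36% of the brain signal. In 13 lung-high stretches brain held 10.8% of the lung signal, spleen 8.11%, kidney 7.90% and liver 4.45%. The 4-fold rule itself limits how high another tissue can be on such stretches, so the nearness of these shares is in part set by it. Whether the lung reads came from lung cells or from elsewhere was not tested.

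The authors' peak lists broke each kidney block into many positions. Kidney had 81 listed peaks in the Slc12a1 window, 80 of them in the block, at a median spacing of 1000 bp (350 to 2700). In the Slc34a1 window it had 20, of which 17 were in the block, 1125 bp apart (500 to 1800). Lung had 11 peaks in the Slc12a1 block and 13 in the Slc34a1 block, of which 9 and 8 had a kidney peak within 250 bp. Of the kidney positions, 10 of 81 (12.3%, 95% exact binomial interval 6.08% to 21.5%) in the Slc12a1 window had a peak of any other tissue within 250 bp. In the Slc34a1 window 10 of 20 did (50%, 27.2% to 72.8%). The same share over all 81375 kidney positions of the genome is not given here. Positions listed this densely can match by spacing alone, so these shares, and those of lung, are not read as a trait of either gene. The lists give no height or p-value, and a peak in the list can rest on few reads: lung positions in the Slc12a1 block had 8 to 28 lung reads within 250 bp.

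Brain and spleen had few listed positions in these windows, and liver had 1 in that of Slc12a1 and 9 in that of Slc34a1. Besides the shared bin, where brain, liver, lung and spleen each listed 1, the Slc12a1 window held 1 brain position, at -15.9 kb from the start peak, with 14 brain reads within 250 bp. In the Slc34a1 window brain listed a position at -13.9 kb from the start peak and another 15.3 kb past it. The latter fell in the highest kidney bin and had 7 brain reads within 250 bp, against 541 in kidney and 76 in lung. Spleen listed 1 position, 22.2 kb past the start peak, with 15 spleen reads.

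Liver reads were raised in places on both sides of the Slc34a1 block, beside kidney before it and above kidney after it. Before the block the bin chr13:55493001-55494000 held 47 reads in kidney and 45 in liver, with 10 in spleen, 8 in lung and 1 in brain. Kidney listed a peak in this bin at -7.9 kb from the start peak and liver at -7.83 kb. The bin before it had 35 kidney reads and 6 in liver, with a kidney peak only. Directly before the block, the bin chr13:55500001-55501000 had 60 kidney reads, its highest count outside the block, of which 85% were on the plus strand (73.4% to 92.9%), and 3 to 14 in the other tissues.

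Past the block the order turned. The last 11 kb of the window held 28.2 scaled reads per kb in liver (25.3 to 31.2), 13.6 in spleen, 8.91 in kidney (7.30 to 10.8), 6.26 in lung and 3.79 in brain. The place of spleen depended on the scaling: kidney was 0.658 times spleen (0.496 to 0.872) with these factors and 1.03 times (0.778 to 1.37) by total reads. Kidney was 0.316 times liver there (0.253 to 0.394). Liver read density in these 11 kb was 3.84 times (3.15 to 4.71) that before the block. The highest liver bins were chr13:55528001-55529000, with 98 liver and 4 kidney reads, and chr13:55519001-55520000, with 79 liver and 42 kidney reads; the latter was also the highest brain bin outside the block, with 14. Liver listed 7 positions there, from 18.6 to 28.1 kb past the start peak, and 1 in the last bin of the kidney block, at 17.7 kb. Spleen had its highest bin outside the block there too, with 23 reads at chr13:55523001-55524000, and lung its highest, with 17 reads at chr13:55522001-55523000. In gene order Slc34a1 is followed by Pfn3, which encodes a profilin, and F12, which encodes coagulation factor XII, a plasma protein made by the liver, and preceded by Rgs14. The liver bins were not assigned to a gene, because the gene table and the reads are on different builds.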

How the data were processed

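The authors deposited, for each of the 5 libraries, a list of aligned reads (chromosome, start, end, strand) and a list of peak positions on a 5 bp grid without height or p-value. Bowtie was used, per the submitters' processing notes; for its settings, the genome build and the peak caller the sources used here give nothing. The windows were given in mm9. The last read on chromosome 7, at 152524509, lies past the last gene end of the GRCm38 table, 145324059, so that table served only for names and gene order.

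Reads of 34 to 36 bases were counted once at the 5′ end. Scaling factors, medians of ratios over 8222 merged peak regions that had 20 or more reads in each library, were 1.09 (kidney), 1.17 (liver), 1.13 (lung), 1.03 (brain) and 0.671 (spleen). Counts under 3 were set to 3 in folds of bins. The start peak is the kidney position with most reads within 250 bp among those up to 2 kb from the block's beginning, and the body runs from 1 kb past it. Named bins are the 3 with most and the 1 with fewest kidney reads in a block, and the highest of each tissue outside it; the bins 8 kb before Slc34a1 were named after their values were seen. The members, windows and rules were chosen with earlier results of these data known. With 1 library per tissue there was no test between tissues. Alternatives covered scaling, repeated reads, read shifting, fold and count limits, bin edges, thinning and window widths. The bin rule was also run on simulated Poisson counts, scored for chromosome 2 bins with a mean of at least 20 scaled reads. In the blocks the other tissues mostly held fewer reads per bin, so that run does not cover them. Other genes of the nephron and annotated gene ends and exons were not analysed here, for want of an annotation of the files' build; the body is defined by the block alone. Software was SciPy 1.17.1, NumPy 2.4.6, Matplotlib 3.10.9 and pandas 2.3.3 under Python 3.11.15.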

Additional observations from a re-analysis of the deposited data

How the results depend on the processing

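Of 50 values recomputed under alternatives for 9 results, 35 stayed within the interval of the value given (for counts, within 1.5 times). Kidney stayed the highest tissue over both blocks in every alternative of its fold. The kidney lead over the next tissue on Slc12a1 was 4.76-fold with scaling by total reads, 4.09-fold over the whole window and 8.34-fold with the median bin subtracted. On Slc34a1 it was 6.37-fold with total reads, 6.88-fold over the whole window and, with lung left out (added with the values in view), 17.5-fold. At a fold of 8, 9 bins of Slc12a1 and 11 of Slc34a1 met the rule. With a start window of 500 bp to both sides, start over body density fell to 0.581 on Slc12a1 and, turning its direction, to 0.816 on Slc34a1; without the highest bin, likewise added, the latter was 1.66. Slc34a1 over Slc12a1 body density was 3.64 with 1 read per position and strand, 4.03 with the median bin subtracted and 3.15 without the highest bin. With peaks matched within 500 bp, 75% of the kidney positions of the Slc34a1 window had a neighbour. The causes of these shifts were not tested. At the 2 start peaks brain, liver and spleen had 1 to 5 reads, and folds over them are not given.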
